A study of Mus musculus with 8 samples.

Results

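The 7 genes described here encode parts of the cell's Na+ and K+ pumping system and the chloride cotransporters coupled to it: the Na/K-ATPase beta subunits Atp1b1, Atp1b2 and Atp1b3, the cation-chloride cotransporters Slc12a2, Slc12a4 and Slc12a7, and the FXYD protein Fxyd3. They were chosen by gene name among the 54532 genes of the count table, and all 7 were present and had enough counts to be tested. Gene expression was measured by RNA-seq in first molar enamel organs of wt C57BL/6 mice at P5 (postnatal day 5, secretory stage) and P12 (postnatal day 12, maturation stage). Both groups had the same genotype and strain and received no treatment, so that age is the only labelled difference. Each library came from a pool of 5 pups, with n = 4 pools at each age, numbered 1, 3, 4 and 5 at P5 and 1 to 4 at P12 by the labels. Values of single libraries are listed below in that order. Pulp tissue was removed and the remaining molars were lysed, so that a library holds every cell type left on the tooth, and in such bulk samples fewer cells of a type and less RNA per cell cannot be told apart.

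The Na/K-ATPase exports Na+ and imports K+ against their gradients at the cost of ATP, and it works as a complex of a catalytic alpha subunit and a glycosylated beta subunit, which is needed for folding and delivery of the alpha subunit to the plasma membrane. Small FXYD proteins bind the complex and tune its affinity for ions. The Na+ gradient made by the pump drives Slc12a2 (Nkcc1), which brings Na+, K+ and Cl- into the cell, while Slc12a4 (Kcc1) and Slc12a7 (Kcc4) let K+ and Cl- out. In enamel, ameloblasts and the adjoining papillary layer move ions between blood and the mineralizing matrix, and the comparison of P5 with P12 asks how expression of these genes differs between matrix secretion and maturation.

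The start sites of both gene pairs that moved in opposite directions, Atp1b1 with Atp1b3 and Slc12a4 with Slc12a7, are shown here by the bases just upstream of one start site each, 5′ to 3′ on the gene's strand, from RefSeq on GRCm38.p6. The windows are chr1:164458356-164458605 on the reverse strand for Atp1b1, chr9:96364443-96364681 on the reverse strand for Atp1b3, chr8:105966116-105966365 on the reverse strand for Slc12a4 and chr13:73763447-73763696 on the forward strand for Slc12a7. Capitals mark the GC box GGGCGG on either strand, the CCAAT box on either strand, and the E-box CACGTG, which reads the same on both strands.
Atp1b1: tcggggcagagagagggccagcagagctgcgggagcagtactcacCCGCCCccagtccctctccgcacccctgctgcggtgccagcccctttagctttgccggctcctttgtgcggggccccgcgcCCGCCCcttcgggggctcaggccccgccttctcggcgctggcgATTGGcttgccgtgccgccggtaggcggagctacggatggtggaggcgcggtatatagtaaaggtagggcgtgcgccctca
Atp1b3: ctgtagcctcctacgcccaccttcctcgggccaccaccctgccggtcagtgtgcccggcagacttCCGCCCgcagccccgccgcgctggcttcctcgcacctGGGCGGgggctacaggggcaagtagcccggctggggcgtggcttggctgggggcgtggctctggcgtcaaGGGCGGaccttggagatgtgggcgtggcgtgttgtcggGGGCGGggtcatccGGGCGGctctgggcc
Slc12a4: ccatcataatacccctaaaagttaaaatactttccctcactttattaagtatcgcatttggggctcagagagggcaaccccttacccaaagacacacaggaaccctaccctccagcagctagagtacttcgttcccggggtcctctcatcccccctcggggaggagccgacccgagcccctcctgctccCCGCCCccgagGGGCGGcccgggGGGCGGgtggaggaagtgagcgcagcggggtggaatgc
Slc12a7: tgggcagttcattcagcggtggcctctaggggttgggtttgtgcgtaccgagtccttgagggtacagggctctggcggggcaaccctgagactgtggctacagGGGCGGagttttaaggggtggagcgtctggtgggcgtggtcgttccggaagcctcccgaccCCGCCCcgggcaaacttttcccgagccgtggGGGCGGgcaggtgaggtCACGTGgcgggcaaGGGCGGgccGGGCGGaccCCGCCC
The GC box GGGCGG occurred 2 times in the Atp1b1 window, 5 times in the Atp1b3 window, 3 times in the Slc12a4 window and 6 times in the Slc12a7 window, and 32.7% of all 32851 windows of 250 bases hold it on either strand. CCAAT was found once, in the Atp1b1 window (33.8% of all windows hold it), and CACGTG once, in the Slc12a7 window (6.02% of all windows). The TATA box TATAAA (12.4% of all windows), the cyclic AMP element TGACGTCA (1.55%) and the hexamer TGTTCT (16.1%) were searched on both strands too, and none was found in these windows. No match overlapped another. The Fxyd3 window (chr7:31076705-31076947, reverse strand) held no GC box and 1 CCAAT, and its GC content was 55.1% against 70.4% in the Atp1b1 window. The windows shown are those whose downstream bases lie in a GENCODE transcript of the gene. RefSeq has another window for Atp1b3 (chr9:96363716-96363965), which held no GC box and 1 CACGTG, and another for Slc12a7 (chr13:73763410-73763659), which held 3 GC boxes and no CACGTG, so the counts depend on the start site. These matches are a description of letters and not of bound sites. Promoter entries matched 5 of the 7 genes.

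The deposited values are whole-number read counts per gene, with totals between 16574548 and 22013456 per library, so that a floor of 3 counts lies between 0.136 and 0.181 CPM. Normalized counts in this text are counts divided by the effective size that edgeR gives each library, times the mean of those sizes. Genes were compared by edgeR's quasi-likelihood test over the 16440 genes that passed its filter on low counts, with Benjamini-Hochberg adjustment and a threshold of 0.05. P12 library 4 stood apart from the other P12 libraries (chi-square over its degrees of freedom of 31.6 to 74.6, against 8.58 to 18.9 among the other P12 pairs), and P5 library 5 stood apart less (17.1 to 18.5, against 4.76 to 5.89). Values without both of them are given below. Enam, Amelx, Mmp20 and Ambn, the 4 markers of secretion, were all lower and the 5 maturation markers Klk4, Amtn, Odam, Wdr72 and Slc24a4 all higher at P12, which follows the stage labels. These lists were chosen with earlier results of these data known, so they are no independent check of the labels. The labels call the cells epithelially derived, but mesenchyme and bone markers, Col1a1 and Col1a2 among them, had sums of 1010062 to 1197475 normalized counts at P5 and 833007 to 1130160 at P12.

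Of the 7 genes, 3 rose (Atp1b3, Slc12a7, Fxyd3), 3 fell (Atp1b1, Slc12a2, Slc12a4) and Atp1b2 did not pass the test. Over all genes tested, 57.2% passed, 28.8% as higher and 28.4% as lower at P12, so that most genes tested also passed. The median log2 fold change of the 7 genes was 0.12, and that of all genes tested was 0.01. For 6 of the 7 genes no P12 library lay within the P5 range, 3 above and 3 below it, while 52.5% of all genes tested had no overlap (26.0% higher and 26.6% lower). Changes of at least 1 log2 unit that also passed the test were found for 3 of the 7 genes (Atp1b1, Atp1b3 and Slc12a4), against 21.5% of all genes tested. Where the ages do not overlap, the two-sided exact permutation test on log2(normalized count + 1) gave 0.0286, the smallest p that 4 libraries against 4 allow.

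**Figure D1:**
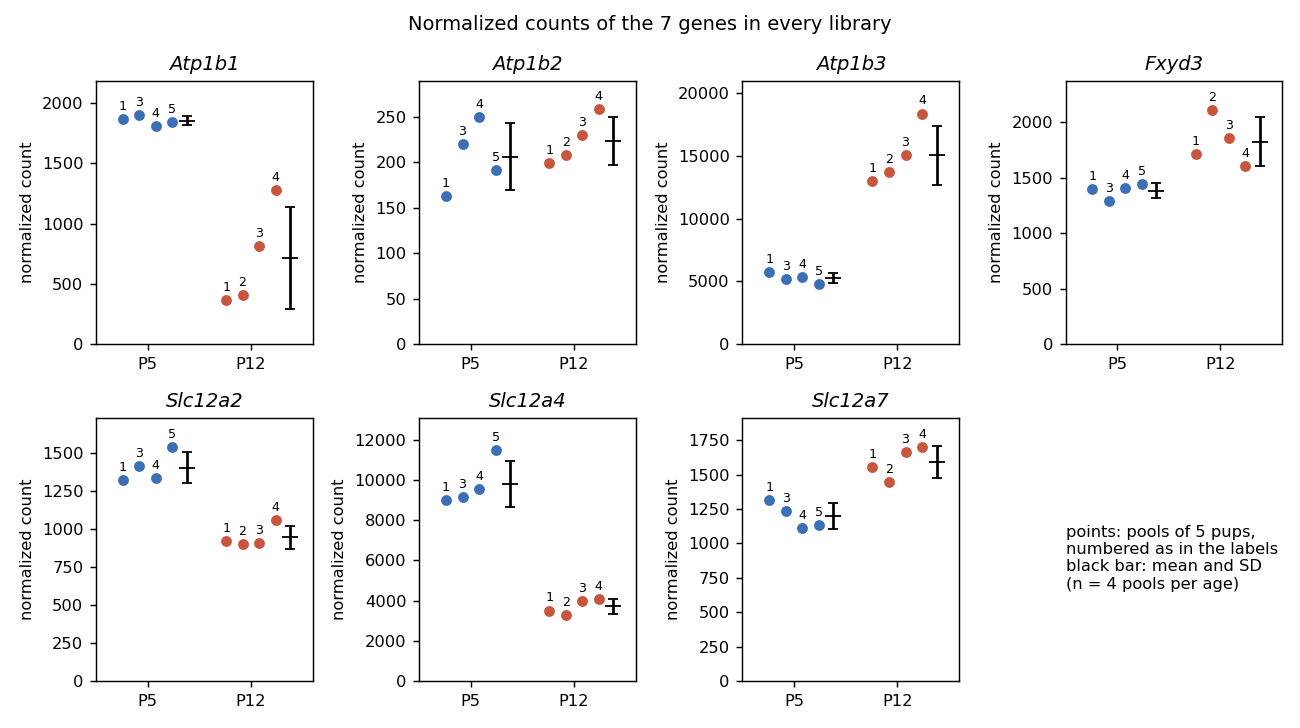
Normalized counts of the 7 genes (y axes from 0, one panel a gene) in the 4 P5 and the 4 P12 libraries (x axis). Points are libraries with their replicate numbers, and bars are the mean and SD of each age. Atp1b3 ranged from 4753 to 5709 at P5 and from 12966 to 18359 at P12, Atp1b1 spread from 364 to 1276 at P12, and only the Atp1b2 panel shows overlapping ages.

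Atp1b3 encodes the beta3 subunit, and it had the largest rise of the 7 genes and the highest counts at P12. The gene (ENSMUSG00000032412, chromosome 9, 96332655 to 96364442, reverse strand) shares no exonic bases with other genes. Its normalized counts were 5709, 5195, 5351 and 4753 at P5, compared with 12966, 13731, 15024 and 18359 at P12. All P12 libraries were far above all P5 libraries, and P12 library 4 was the highest. The mean ± SD (n = 4) rose from 5252 ± 396 to 15020 ± 2383, a 2.86-fold rise and a log2 fold change of 1.52 ± 0.11 (standard error), with a 95% interval of 1.27 to 1.76 and an edgeR adjusted p of 6.4e-07. Without P5 library 5 and P12 library 4 the log2 fold change was 1.36.

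Atp1b1 encodes the beta1 subunit, the most widespread form, and it fell. The gene (ENSMUSG00000026576, chromosome 1, 164437109 to 164458355, reverse strand) shares 18.7% of its exonic bases with other genes, the largest overlap being with the antisense gene Nme7, which had between 102 and 206 counts per library. The counting's use of strand is not given in the sources used here, so reads over shared bases cannot be told apart. The normalized counts of Atp1b1 were 1863, 1902, 1805 and 1844 at P5, compared with 364, 411, 811 and 1276 at P12. The P5 libraries agreed closely, whereas the P12 libraries spread over more than 3 times their lowest value, still without reaching the P5 range. The mean ± SD (n = 4) fell from 1853 ± 40.4 to 716 ± 424, a log2 fold change of -1.38 ± 0.32 (standard error), with a 95% interval of -2.08 to -0.68 and an edgeR adjusted p of 0.0032. It was -1.83 without P12 library 4 and -1.16 without P12 library 1, and it was past the threshold in both fits.

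Atp1b2 encodes the beta2 subunit, best known from glia and neurons, and it was the lowest of the 7 genes. The gene (ENSMUSG00000041329, chromosome 11, 69599736 to 69605942, reverse strand) shares no exonic bases with other genes. Libraries at P5 had 163, 220, 249 and 192 normalized counts, and those at P12 had 199, 208, 230 and 258. The ages overlapped, with 3 of the 4 P12 libraries inside the P5 range. The log2 fold change was 0.12 ± 0.14 with its standard error (95% interval -0.20 to 0.43, adjusted p = 0.51 from edgeR; exact permutation test, two-sided p = 0.457), so that a rise of up to 0.43 or a fall of up to 0.20 on the log2 scale lies within its interval. Scaling by total count alone, which moves the median of all genes from 0.01 to 0.38, put it past the threshold at 0.48 (adjusted p = 0.0082 from edgeR), 0.10 above that median.

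The make-up of the beta family was compared per kilobase of gene length, since levels of different genes can be set against each other only per length. Atp1b3 made up 78.7, 76.4, 77.5 and 75.5% of the summed beta subunit level at P5, and 97.0, 96.9, 95.2 and 94.1% at P12. Atp1b1 held 21.1 ± 1.29% at P5 and 3.35 ± 1.43% at P12 (SD, n = 4), and Atp1b2 1.77 ± 0.34% and 0.84 ± 0.04%. At both ages Atp1b3 thus held most of the family, and its share was higher in every P12 library than in any P5 library. The log2 ratio of Atp1b1 to Atp1b3 within a library, from counts with a pseudocount of 1, was -1.50 ± 0.11 at P5 and -4.57 ± 0.64 at P12 (SD, n = 4), a difference of -3.07 (exact permutation test, two-sided p = 0.0286, also after adjustment over the 4 ratios compared). This ratio does not depend on how the libraries are scaled, and it shows unequal change of both genes without showing which of them changed. Atp1b1 was lower and Atp1b3 higher in every P12 library than in any P5 library. The p of their ratio was thus fixed by the single genes and is no further support. Atp1b4, a muscle relative of the family, had 6 to 11 counts per library at P5 and 0 to 2 at P12 and was below the filter on low counts. Without that filter it passed edgeR's test (adjusted p = 0.0029).

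**Figure D2:**
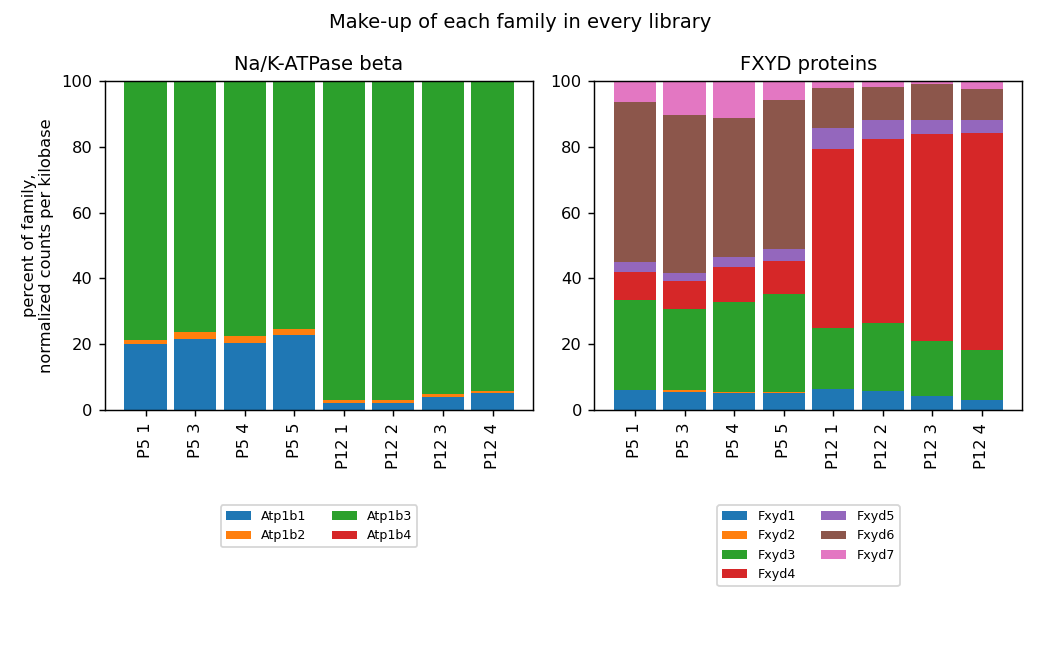
Stacked bars give each gene's percent of the beta subunit family (left) or the FXYD family (right) (y axis, 0 to 100, from normalized counts per kilobase) in each of the 8 libraries (x axis, age and replicate number). Atp1b3 took 77.0% of the beta level at P5 and 95.8% at P12 on average, and Fxyd4 9.49% and 59.7% of the FXYD level.

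Fxyd3 encodes a FXYD regulator of the pump found in many epithelia. The gene (ENSMUSG00000057092, chromosome 7, 31068172 to 31076704, reverse strand) shares 42.5% of its exonic bases with other genes, the largest overlap being with the antisense gene Lgi4, which had between 9 and 62 counts per library. Its normalized counts were 1400, 1285, 1403 and 1438 at P5, compared with 1713, 2112, 1855 and 1603 at P12. Every P12 library was above every P5 library, with the smallest gap at P12 library 4. The mean ± SD (n = 4) rose from 1381 ± 66.9 to 1821 ± 220, a log2 fold change of 0.40 ± 0.08 (standard error), with a 95% interval of 0.21 to 0.58 and an edgeR adjusted p of 0.0019. The log2 ratio of Fxyd3 to Atp1b1 was -0.42 ± 0.10 at P5 and 2.23, 2.36, 1.19 and 0.33 at P12, a difference of 1.95 (exact permutation test, two-sided p = 0.0286, also after adjustment over the 4 ratios). Its adjusted p was 0.0571 when any one P5 library was left out, the one of the 4 ratios for which this happened. As Fxyd3 rose and Atp1b1 fell without overlap, the p of their ratio over all 8 libraries was fixed by the single genes.

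Of the 7 FXYD genes, all of them tested, 4 rose, 2 fell (57.2% of all genes tested were called, 28.8% higher and 28.4% lower) and Fxyd2, the renal gamma subunit, did not pass the test (12.3 ± 10.2 at P5, 14.2 ± 5.54 at P12, adjusted p = 0.80 from edgeR). Fxyd4, known from kidney collecting duct and colon, rose most, from 180, 182, 218 and 196 to 2018, 2291, 2840 and 2818 in P12 libraries 1 to 4 (12.9-fold, log2 fold change 3.68 ± 0.13 with its standard error, edgeR adjusted p = 2.5e-09). Fxyd5 rose from 131 ± 12.5 to 454 ± 76.9 (log2 fold change 1.80, adjusted p = 8.2e-07 from edgeR) and Fxyd1 from 125 ± 10.4 to 218 ± 58.6 (0.81, adjusted p = 0.0036 from edgeR). Fxyd6 fell from 1980 ± 164 to 922 ± 82.4 (-1.10, adjusted p = 7.0e-07 from edgeR) and Fxyd7, known from brain, from 61.4 ± 21.9 to 26.4 ± 8.54 (-1.21, adjusted p = 0.0074 from edgeR). The share of Fxyd3 in the summed FXYD level per kilobase was therefore lower at P12 (17.8 ± 2.46%) than at P5 (27.3 ± 2.19%) although its own count was higher, and Fxyd4 in place of Fxyd6 had the largest share. Fxyd5, Fxyd7, Fxyd1 and Fxyd3 lie one after another on the reverse strand of chromosome 7, between 31032722 and 31076704, and 3 of these 4 neighbours rose while Fxyd7 fell.

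Slc12a2 encodes Nkcc1, the Na-K-2Cl cotransporter that loads cells with chloride, and it fell. The gene (ENSMUSG00000024597, chromosome 18, 57878678 to 57946821, forward strand) shares no exonic bases with other genes. Its normalized counts were 1324, 1413, 1334 and 1540 at P5, compared with 919, 902, 904 and 1059 at P12. All P12 libraries were below all P5 libraries, and in both ages the library that stood apart was the highest. The mean ± SD (n = 4) fell from 1403 ± 99.8 to 946 ± 75.7, a log2 fold change of -0.57 ± 0.08 (standard error), with a 95% interval of -0.73 to -0.40 and an edgeR adjusted p of 6.6e-05. Scaling by total count reduced this to -0.20 (adjusted p = 0.025 from edgeR), or -0.58 once the 0.38 by which that scaling shifts the median gene is taken off.

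Slc12a4 encodes Kcc1, the K-Cl cotransporter of most tissues, and it showed the largest fall among the Slc12 genes of this set. The gene (ENSMUSG00000017765, chromosome 8, 105943590 to 105966097, reverse strand) shares 8.44% of its exonic bases with other genes, the largest overlap being with the antisense gene Gm16156, which had 0 to 3 counts. Its normalized counts were 8995, 9151, 9579 and 11511 at P5, compared with 3508, 3295, 3984 and 4096 at P12. The ages were widely separated, and P5 library 5 was the highest. The mean ± SD (n = 4) fell from 9809 ± 1161 to 3721 ± 381, a log2 fold change of -1.40 ± 0.10 (standard error), with a 95% interval of -1.62 to -1.18 and an edgeR adjusted p of 5.5e-07. It was -1.36 without P5 library 5 and P12 library 4.

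Slc12a7 encodes Kcc4, a K-Cl cotransporter known from kidney and inner ear, and it rose by a smaller amount. The gene (ENSMUSG00000017756, chromosome 13, 73733094 to 73816754, forward strand) shares no exonic bases with other genes. Its normalized counts were 1315, 1236, 1113 and 1130 at P5, compared with 1555, 1444, 1667 and 1702 at P12. Every P12 library was above every P5 library, with 1315 and 1444 as the nearest values. The mean ± SD (n = 4) rose from 1199 ± 95.0 to 1592 ± 117, a log2 fold change of 0.41 ± 0.08 (standard error), with a 95% interval of 0.24 to 0.58 and an edgeR adjusted p of 7.6e-04. It was 0.35 without P5 library 5 and P12 library 4.

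The 2 K-Cl cotransporters thus moved in opposite directions, and the log2 ratio of Slc12a4 to Slc12a7 went from 3.03 ± 0.25 at P5 to 1.22 ± 0.05 at P12 (SD, n = 4), a difference of -1.81. The log2 ratio of the chloride loader Slc12a2 to Slc12a4 went from -2.80 ± 0.09 to -1.97 ± 0.12, a difference of 0.83, although both genes fell. Both ratios had no overlap between the ages (exact permutation test, two-sided p = 0.0286, also after adjustment over the 4 ratios). For Slc12a4 to Slc12a7 this p was fixed by the single genes, which moved in opposite directions without overlap.

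Of the 8 Slc12 genes listed here, 6 were tested, of which 1 rose, 3 fell and 2 did not pass the test, beside the 57.2% called over all genes tested. Slc12a5, the neuronal K-Cl cotransporter, fell from 259 ± 70.5 to 80.2 ± 19.1 (log2 fold change -1.70, adjusted p = 6.3e-05 from edgeR). Slc12a8 (22.3 ± 9.16 and 35.7 ± 12.8, adjusted p = 0.14) and Slc12a9 (426 ± 36.1 and 427 ± 45.9, adjusted p = 0.97) did not pass edgeR's test, although Slc12a8 did in 5 of the 18 alternative fits, among them those without P5 library 5 or P12 library 2 (adjusted p between 0.0068 and 0.30 over the 18). The renal members Slc12a1, which encodes Nkcc2, and Slc12a3 were below the filter on low counts, with at most 1 and 2 counts per library at P5, 0 to 7 and 4 to 14 at P12.

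WNK kinases act through the kinases SPAK and OSR1, which phosphorylate the Slc12 cotransporters and thereby turn Nkcc1 on and the K-Cl cotransporters off. Of the 10 genes listed for this pathway, 4 rose, 2 fell and 4 did not pass the test, a share near the 57.2% called over all genes tested. Stk39, which encodes SPAK, was 243, 288, 243 and 205 at P5 and 934, 995, 1096 and 1108 at P12, a rise of 4.22-fold (log2 fold change 2.08 ± 0.10 with its standard error, edgeR adjusted p = 3.6e-08). Its close relative Oxsr1, which encodes OSR1, had 1009 ± 109 and 974 ± 64.5 (log2 fold change -0.05, 95% interval -0.24 to 0.13, adjusted p = 0.62 from edgeR). The scaffold genes Cab39 and Cab39l, whose proteins activate both kinases, rose by 0.25 and 0.49 on the log2 scale (adjusted p = 0.0078 and 0.0022 from edgeR). Wnk1 rose from 4272 ± 169 to 5114 ± 78.6 (0.26, adjusted p = 0.0025 from edgeR), whereas Wnk3 fell from 176 ± 18.3 to 44.6 ± 4.49 (-1.98, adjusted p = 8.2e-07 from edgeR). Wnk2 was 987 ± 156 at P5 and 720 ± 166 at P12 with overlapping ages (-0.46, adjusted p = 0.025 from edgeR), a call lost in 6 of 18 alternatives, among them the fits without P5 library 5, P12 library 1 or P12 library 2 (log2 fold changes between -0.62 and -0.10, adjusted p up to 0.57 over all alternatives). Wnk4, Klhl3 and Cul3, the latter pair being parts of the ubiquitin ligase that removes WNK kinases, had log2 fold changes of -0.25, 0.02 and -0.03 and did not pass the test. By deposited gene length Cul3 had the highest level per kilobase of the 10 at P5, with normalized counts of 1631 ± 21.9 there and 1598 ± 118 at P12, and Cab39 the highest at P12, with 2257 ± 45.9 at P5 and 2688 ± 228 at P12. By main transcript length Cab39 was above Cul3 at P5 too, with 593 against 346 normalized counts per kilobase, and Wnk1 was at 404.

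**Figure D3:**
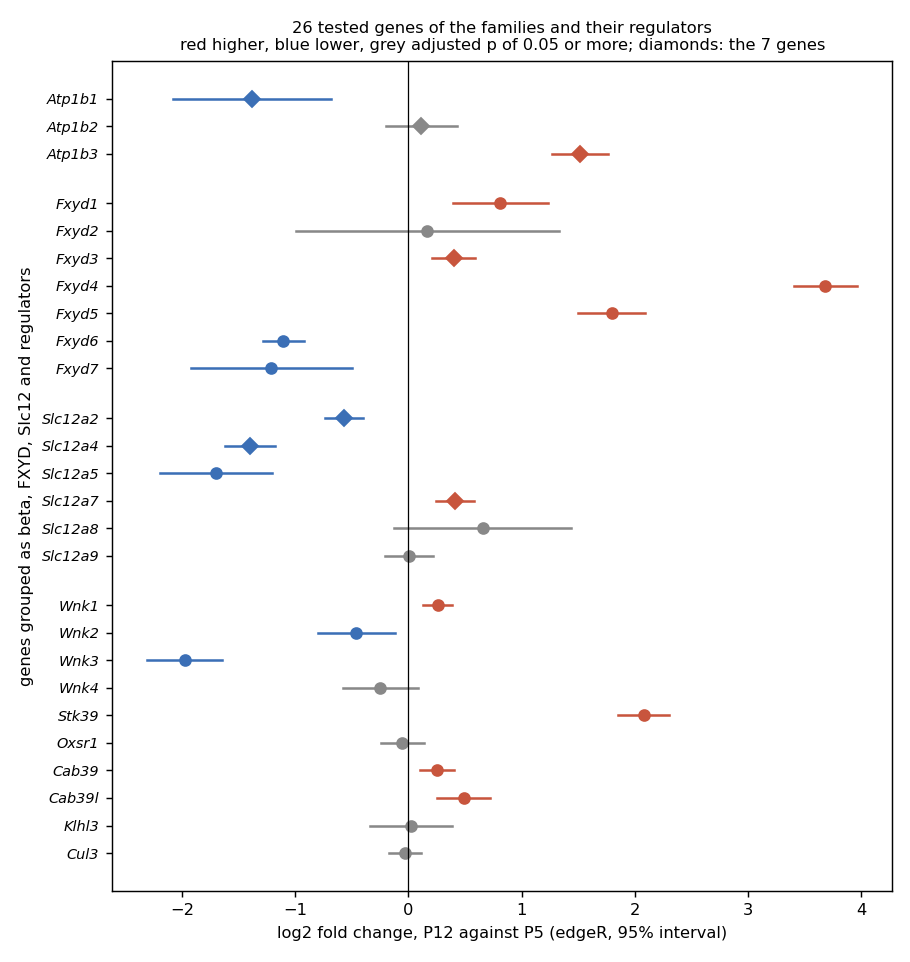
Log2 fold changes of P12 against P5 (x axis) with 95% intervals for the 26 tested genes of the families and their regulators (y axis, grouped). Red points are higher and blue points lower at an adjusted p under 0.05 by edgeR, grey points did not pass, and diamonds are the 7 genes. Of the 26 genes 10 were higher, 8 lower and 8 not called, with Fxyd4 at 3.68 and Wnk3 at -1.98 as the ends.

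In the 32 listed genes as a whole, 26 were tested, of which 10 rose and 8 fell, with a median log2 fold change of 0.07. Without the 7 genes, 7 of 19 rose and 5 fell. These shares stand beside 28.8% and 28.4% over all genes tested. Of the 18 calls, 17 held in all 18 alternative fits, the exception being Wnk2, and scaling by total count added 6 calls. Besides Slc12a8, no gene tested gained a call in any other of the 18 alternative fits, while the fit without the filter on low counts also called 3 of the 6 genes below it (Atp1b4, Slc12a3 and Atp12a).

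At P5 the order of the 7 genes by level per kilobase of gene length was Slc12a4 (2292 ± 271), Atp1b3 (2198 ± 166), Atp1b1 (601 ± 13.1), Fxyd3 (285 ± 13.8), Slc12a2 (215 ± 15.3), Slc12a7 (94.6 ± 7.50) and Atp1b2 (50.4 ± 9.05), each as normalized counts per kilobase with the SD over n = 4 libraries. The ranges of Slc12a4 and Atp1b3 overlapped and all other neighbours were separate. At P12 the order was Atp1b3 (6287 ± 997), Slc12a4 (870 ± 89.2), Fxyd3 (375 ± 45.3), Atp1b1 (232 ± 138), Slc12a2 (145 ± 11.6), Slc12a7 (126 ± 9.23) and Atp1b2 (54.7 ± 6.48). The ranges of Atp1b1 overlapped those of Fxyd3 and Slc12a2, and the other neighbours were separate. Atp1b3 and Slc12a4 thus led at both ages and Atp1b2 was last. The deposited length of Slc12a2 is 6520 bases, that of its main transcript, whereas its exons in GENCODE M21 cover 10920 bases, so that its level per kilobase would be lower on the latter. The length also matters elsewhere in the order. With main transcript lengths Slc12a7 lay above Slc12a2, by 233 to 215 with overlapping ranges at P5 and by 310 to 145 at P12. Slc12a7 also lay above Atp1b1 at P12 (310 against 277) and Atp1b3 above Slc12a4 at P5 (2634 against 2612), both with overlapping ranges.

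The P12 libraries differed among themselves more than the P5 libraries for Atp1b1, Atp1b3 and Fxyd3. From high to low the order of P12 libraries was 4, 3, 2 and 1 for Atp1b1, Atp1b2 and Atp1b3. The summed secretory markers had the same order, with 237041, 264278, 433633 and 621683 normalized counts in P12 libraries 1 to 4, against 4966559 to 5580346 at P5. So did the summed maturation markers, with 356963, 442551, 458253 and 482565 in P12 libraries 1 to 4, against 12880 to 44228 at P5. Not every single marker followed its sum. Ambn, the largest part of the secretory sum at P12, and Mmp20 did, but Amelx and Enam were lowest in library 2. Klk4, Amtn and Slc24a4 had the order 4, 3, 2 and 1, but Wdr72 and Odam, the largest part of the maturation sum, did not. The summed muscle markers had the order 4, 3, 2 and 1 too, and their level in library 4 was 1.76 times the mean of the other P12 libraries. Myh4 was the largest part of that sum, with 372, 550, 572 and 1111 in P12 libraries 1 to 4. Myh1 was highest in library 4 too, but Acta1, Ckm and Tnnt3 were not. Total counts had the reverse order, from 22013456 in P12 library 1 to 17588152 in library 4. The level in P12 library 4 over the mean of the other P12 libraries was 2.41 for Atp1b1 and 1.99 for the secretory markers, against 1.32 for Atp1b3, 1.17 for Slc12a2, 1.14 for Slc12a4 and 1.09 for Slc12a7. Fxyd3 was lowest in library 4, at 0.847 of the mean of the others. All 6 oral epithelium markers (Krt13, Krt4, Krt6b, Krt6a, Krt24 and Sprr1a) rose by edgeR's test, and their sum was between 830 and 1621 at P5 and 48125, 59776, 39086 and 12129 at P12. In P12 library 4, however, Krt4 (276) and Sprr1a (42.2) lay within their P5 ranges (183 to 348 and 33.9 to 50.1). What part these markers, muscle markers included, or the total counts have in the differences of Fxyd3, Atp1b1 and the other genes was not tested.

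**Figure D4:**
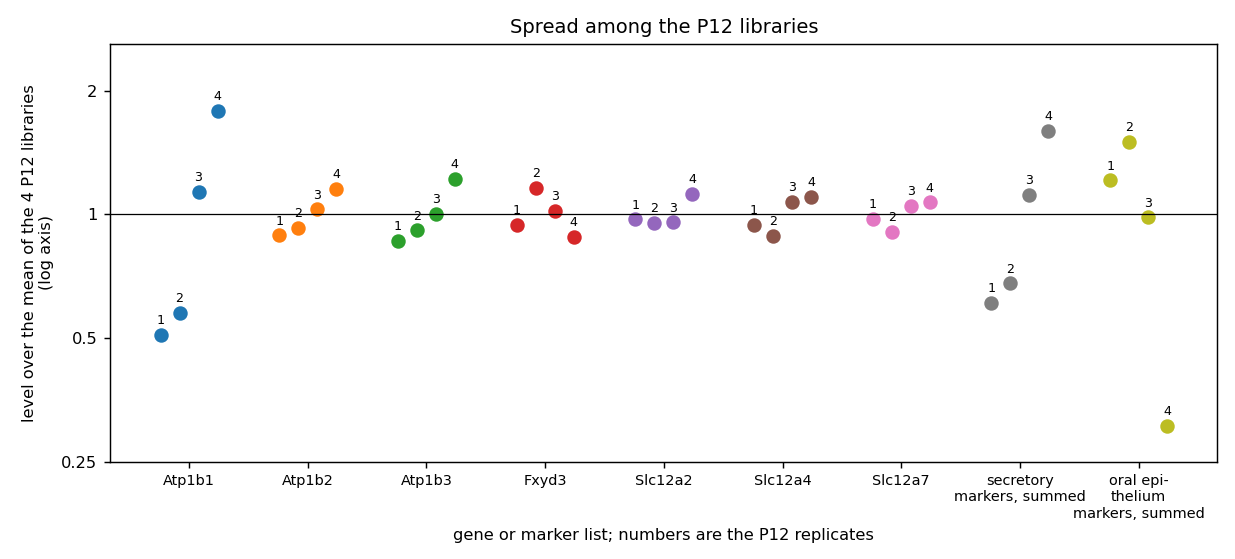
Level in each P12 library over the mean of the 4 P12 libraries (y axis, log axis) for the 7 genes and the summed secretory and oral epithelium markers (x axis), with replicate numbers at the points. Library 4 is highest for the beta subunits, the Slc12 genes and the secretory markers, and lowest for Fxyd3 and the oral epithelium markers.

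Other cell types in the libraries were followed by chosen marker lists, none of whose genes was at 0 in all libraries. Blood vessel markers (4 of 4 higher) had sums of 2093 to 2496 at P5 and 4055 to 4393 at P12. Leukocyte markers (4 of 4 higher) had sums of 1355 to 1941 at P5 and 2060 to 2786 at P12. General epithelial markers (Epcam, Cdh1, Krt14 and Krt5; 3 higher and Cdh1 lower) had sums of 90040 to 95878 at P5 and 259768 to 324806 at P12. Nerve and Schwann cell markers, cells known to express Atp1b2, Slc12a5 or Fxyd7, overlapped between the ages (3205 to 4090 at P5, 3244 to 4040 at P12, with 3 higher and 1 lower of 6). Muscle markers overlapped as well (617 to 1085 and 725 to 1552, with 2 higher and 3 lower of 5), as did red cell markers (16521 to 31557 and 15661 to 18692, 1 lower of 4) and mesenchyme and bone markers (2 higher and 1 lower of 5). Col1a1 and Col1a2 made up most of the mesenchyme and bone sum, so its overlap hides changes of smaller members. Col3a1 rose from 4414 ± 235 to 54909 ± 25880 and Ibsp from 1245 ± 155 to 4234 ± 1751, both without overlap. Col1a2 fell from 357161 ± 21578 to 278602 ± 33217, and Col1a1 and Sparc did not pass the test. The part of these cell types in the differences above was not tested.

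For each of the 7 genes, the protein-coding genes outside the lists with the most similar profile over the 8 libraries were found by Pearson's r of log2(normalized count + 1), among 11035 genes with a mean of at least 100. The 8 points fall into 2 ages and share each library's depth, and r is given as a description. Atp1b3 was closest to Kidins220 (r = 0.999) and to Tnc (r = 0.998), which rose from 8300 ± 405 to 19308 ± 2519. Atp1b1 was closest to Kpna3 (r = 0.990) and to Abca4 (r = 0.988), the latter falling from 341 ± 21.7 to 125 ± 57.4. Kpna3 fell much less, from 1297 ± 16.1 to 1118 ± 91.8 (log2 fold change -0.21), since r does not measure the size of a change. Slc12a2 was closest to Agap2 (r = 0.994) and Kif1a (r = 0.994), Slc12a4 to Ssbp3 (r = 0.9997) and Hectd4 (r = 0.999), Slc12a7 to Pigg (r = 0.989) and Mrm1 (r = 0.988), and Fxyd3 to Ctsa (r = 0.975) and Pa2g4 (r = 0.974). Atp1b2 had the least similar partners, Klhdc4 (r = 0.927) and Ccng2 (r = 0.912). Genes with r above 0.95 numbered 1342 for Slc12a4, 969 for Atp1b3, 840 for Slc12a2, 166 for Atp1b1, 119 for Slc12a7, 53 for Fxyd3 and 0 for Atp1b2.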

How the data were processed

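RNA was captured by its poly(A) tail, and the authors deposited one table in which each gene has its unnormalized read count in whole numbers, beside its name, position and length. The aligner, counting program and use of strand are not given in the sources used here. The submitters' processing notes list mm39 and CASAVA, but 53499 of the 54532 genes have the coordinates of GENCODE M21 for GRCm38, so GRCm38 is used. Columns were assigned by their names, which are the libraries' titles. Libraries of the same age differed beyond counting noise in all 12 pairings (chi-square over its degrees of freedom, 4.76 to 74.6), so none was treated as a duplicate. Each library is a separate pool of pups. Floors cover counting error only.

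The quasi-likelihood test of edgeR 4.0.16 (R 4.3.3) was run on the counts without covariates, after filterByExpr and TMM, and p-values were adjusted by Benjamini-Hochberg. Alternatives were DESeq2 1.42.0, the tool named in the study's methods, limma-voom (limma 3.58.1), other scalings and filters, each library left out, and a replicate block. Main transcript lengths and lists limited to a mean of at least 100 counts were added after seeing the data. Scripts were tested on simulated data. Ratios and single genes were compared by exact permutation (Python 3.11.15, numpy 2.4.6). The 7 genes, the family lists and the marker lists were chosen with earlier results of these data known. Named are the 7 genes, list genes past the threshold, the first of each list by level per kilobase, others where a count is spelled out, the 2 most similar genes and the markers. The labels give no batch. Some genes of these families are not reported here and were left out of the lists. Immunostaining, blots and other experiments are not analysed here.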

Additional observations from a re-analysis of the deposited data

Results flagged for a closer look

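The normalized count of Slc12a2 in P12 library 4 was 1059, against 902 to 919 in the other P12 libraries, a gap beyond Dixon's 95% critical value for 4 samples. In all, 14 groups were examined in this way (7 genes at 2 ages) and 1 passed, where chance gives about 1 in 20, or 0.7 of 14. The log2 fold change of Slc12a2 was -0.57 with this library and -0.63 without it, with adjusted p = 6.6e-05 and 4.9e-06 from edgeR.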

How the results depend on the processing

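Atp1b1, Atp1b3, Slc12a2, Slc12a4, Slc12a7 and Fxyd3 kept their direction and stayed past the threshold in all 18 alternative fits. The widest range was that of Atp1b1, -1.83 to -1.03, and adjusted p reached 0.019 for it, 0.025 for Slc12a2 and 0.016 for Fxyd3. Atp1b2 passed the threshold under total count scaling alone (0.48). That scaling moved the split of all calls from 4735 higher and 4676 lower to 8877 and 2330. Requiring at least 1 log2 unit left 3541 genes called in place of 9411. The Fxyd3 to Atp1b1 ratio difference lay between 1.68 and 2.35 with each library left out. Its adjusted p from the permutation test was 0.0571 without any one P5 library, where the difference was 1.91 to 1.97 and the ages did not overlap. In those sets, P12 libraries 1 to 3 against all the rest differed by more than the ages did, which gives this p. The other 3 ratios kept their calls in the 9 alternatives that have a test. With P5 library 5 and P12 library 4 both left out, 3 libraries against 3 cannot go below 0.1 and the 4 ratios kept their direction. Without these libraries the log2 fold changes were -1.83 for Atp1b1, 0.0038 for Atp1b2, -0.58 for Slc12a2 and 0.47 for Fxyd3. Those of Atp1b3, Slc12a4 and Slc12a7 are given above.

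The numbers 1, 3 and 4 occur at both ages, but same-numbered libraries did not deviate together (correlations 0.04, 0.01 and -0.04). Libraries with different numbers had correlations between -0.07 and 0.06. Same-numbered libraries were therefore not treated as pairs, although so few correlations cannot exclude that they share something besides a number. A replicate block over these 6 libraries gave 7710 calls, against 8117 for the same 6 libraries without it. With the block the log2 fold changes were -1.34 for Atp1b1, 0.13 for Atp1b2, 1.50 for Atp1b3, -0.50 for Slc12a2, -1.26 for Slc12a4, 0.43 for Slc12a7 and 0.34 for Fxyd3, and the block changed no call among these genes. The listed genes called numbered 18 with and without it. With lists limited to a mean of at least 100 counts, chosen after seeing the data, 17 of 22 genes were called. The share over all genes at that cut was not computed, so this count has no background to be set against.

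With 4 pools an age, exact permutation tests cannot go below 0.0286, and genes with a few counts were below the filter. Without it edgeR called 3 of the 6 (log2 fold change -2.99 for Atp1b4, 2.46 for Slc12a3 and 2.82 for Atp12a; adjusted p = 0.0029, 0.022 and 0.019) and not Slc12a1, Atp4a or Atp4b.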

Other observations

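The H/K-ATPases exchange H+ for K+ and are the nearest relatives of the Na/K-ATPase. None of the 3 listed genes passed the filter on low counts. Atp4a had 4, 3, 1 and 6 counts at P5 (libraries 1, 3, 4 and 5) and 0, 4, 3 and 7 at P12 (libraries 1 to 4). Atp4b had 0, 2, 0 and 3 counts at P5 and 3, 0, 4 and 0 at P12. Atp12a, the non-gastric form, had 0, 1, 3 and 0 counts at P5 and 6, 15, 20 and 1 at P12, so that the P12 libraries 2 and 3 stood above the rest while library 4 lay within the P5 range. Without the filter Atp12a passed edgeR's test (log2 fold change 2.82, adjusted p = 0.019).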
